A study of Rattus norvegicus with 8 samples.

Results

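The genes described are the chemokines and chemokine receptors on a rat oligonucleotide array. They were taken by name, as every probe whose gene name begins with Ccl, Cxcl, Cx3cl, Xcl, Ccr, Cxcr, Cx3cr or Xcr followed by a number, with the endings for predicted and mapped genes removed. The rule found 50 of 41012 probes, which stand for 44 of 35536 genes on the array, 30 of them ligands and 14 receptors. All 8 rats were TRAP rats, males heterozygous for a transgene that drives prostate adenocarcinoma, of a strain labelled SD and aged 15 weeks. Ventral prostate RNA of 4 untreated rats (Control 102, 103, 104 and 106) was compared with that of 4 rats treated with telmisartan, which blocks the type 1 receptor of angiotensin II (Telmisartan 302, 303, 305 and 306). The drinking water of these rats carried the drug at 10 mg/kg per day over 12 weeks, starting at 3 weeks of age. RNA of each rat was labelled with Cy5 and hybridised on its own array against normal ventral prostate of male F344 rats aged 6 weeks, labelled with Cy3, so that a log2 ratio above 0 means more signal from the TRAP prostate.

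Chemokines are small secreted proteins that bind receptors with 7 membrane-spanning helices on leukocytes and steer their migration along a gradient. Ligands of the Cxcl1 and Cxcl2 kind attract neutrophils through Cxcr2, ligands of the Ccl2 and Ccl7 kind attract monocytes through Ccr2, and Cxcl9, Cxcl10 and Cxcl11 attract activated T cells through Cxcr3. In prostate and other tissues, epithelium, stroma and endothelium can make the ligands under inflammatory signals, whereas most of the receptors are carried by leukocytes. In whole prostate RNA, fewer cells of a type and less RNA per cell cannot be told apart.

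Each probe is a single-stranded oligonucleotide of 60 bases. The probes of 7 ligands that cover the neutrophil, monocyte and T cell attractants, and of the receptor Cx3cr1, are shown because the results below rest on them. Ccl7 has a pair of probes, and the capitals mark the 29 bases that both hold.
Cxcl1: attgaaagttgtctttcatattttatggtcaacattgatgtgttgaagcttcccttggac
Cxcl2: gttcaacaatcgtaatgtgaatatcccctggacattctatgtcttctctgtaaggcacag
Ccl2: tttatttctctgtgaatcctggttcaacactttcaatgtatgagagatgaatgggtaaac
Ccl7, tested probe: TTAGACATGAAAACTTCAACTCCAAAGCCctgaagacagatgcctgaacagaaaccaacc
Ccl7, other probe: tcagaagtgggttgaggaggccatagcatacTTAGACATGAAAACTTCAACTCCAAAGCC
Cxcl9: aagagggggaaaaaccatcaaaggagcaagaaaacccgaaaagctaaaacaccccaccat
Cxcl10: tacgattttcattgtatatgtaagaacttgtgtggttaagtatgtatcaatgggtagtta
Cxcl11: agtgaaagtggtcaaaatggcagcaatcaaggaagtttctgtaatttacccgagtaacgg
Cx3cr1: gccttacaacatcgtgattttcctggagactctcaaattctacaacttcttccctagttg
Over the 1219 pairs of probes that belong to different genes of the family, the longest run of bases shared was 10 and the median was 6. The probes of neighbouring and related chemokines therefore have no long stretch in common. Probes were not compared with the transcripts of related genes, so binding of a probe to another gene's transcript was not tested. Ccl2 was printed 10 times on each array, and the SD between its spots on an array was 0.0189 to 0.101 on the log2 scale.

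Several of these genes lie side by side in the RefSeq gene order of the assembly GRCr8. Cxcl11, Cxcl10 and Cxcl9 follow each other on chromosome 14, where Cxcl2 and Cxcl1 are also neighbours. Ccl2, Ccl7, Ccl11 and Ccl12 follow each other on chromosome 10. RefSeq promoter sequences of the same build were matched for 33 of the 44 genes. They were searched over the 250 bases before the gene start, on both strands and with overlapping matches counted, for the NF-kB word GGGNNNTTC and the interferon response word TTCNNTTTC. The NF-kB word was present in 16 of the 33 promoters, or 48.5%, against 11.9% of all 33469 promoters in the table. The interferon response word was present in 3 of 33, or 9.09%, against 8.12% of all. The promoters of 6 ligands of the neutrophil, monocyte and T cell groups are shown with matches to the NF-kB word in capitals, each written 5′ to 3′ on the strand of the gene.
Cxcl1, chr14:17479322-17479441, minus strand: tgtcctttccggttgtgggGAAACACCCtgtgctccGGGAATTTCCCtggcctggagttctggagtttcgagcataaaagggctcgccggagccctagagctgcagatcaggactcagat
Cxcl2, chr14:17467256-17467375, minus strand: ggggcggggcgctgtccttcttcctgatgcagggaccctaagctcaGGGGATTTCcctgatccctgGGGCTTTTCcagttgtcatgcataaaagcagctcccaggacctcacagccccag
Ccl7, chr10:67513975-67514094, plus strand: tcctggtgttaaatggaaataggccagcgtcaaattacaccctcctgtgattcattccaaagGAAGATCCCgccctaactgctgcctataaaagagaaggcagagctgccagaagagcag
Cxcl10, chr14:15988866-15988985, plus strand: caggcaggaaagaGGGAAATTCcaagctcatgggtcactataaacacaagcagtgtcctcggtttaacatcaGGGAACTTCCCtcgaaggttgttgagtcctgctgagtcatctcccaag
Cxcl11, chr14:15973608-15973727, plus strand: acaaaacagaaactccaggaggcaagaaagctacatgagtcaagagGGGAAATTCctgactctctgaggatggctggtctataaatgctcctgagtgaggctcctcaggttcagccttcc
Cxcl9, chr14:16007046-16007165, plus strand: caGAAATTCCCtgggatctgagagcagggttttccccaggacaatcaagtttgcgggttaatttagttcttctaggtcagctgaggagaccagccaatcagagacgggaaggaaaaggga
The stretch shown for Cxcl10 lies 200 to 81 bases before its start, and the others are the last 120 bases before theirs. A run of 11 capitals holds overlapping matches on both strands. Cxcl1 had matches that began 101, 84 and 82 bases before the start, Cxcl2 at 74 and 54, Ccl7 at 58, Cxcl11 at 74, Cxcl9 at 118, and Cxcl10 at 187, 128 and 126. Only promoters with a match are shown, and those of Ccl12, Ccl17 and Ccl22 were among the ones searched that had none. A match is a description of the letters and was not tested as a binding site.

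The arrays as a whole set limits on what follows. Well above background in Cy5 were 64.7% to 76.8% of gene spots in control rats and 59.2% to 68.1% in treated rats, and dyes were never swapped. On both slides the control rats lay at array positions 3 and 4 and the treated rats at positions 1 and 2, so position and treatment cannot be told apart. Reference and TRAP rats are unlike in strain, age, transgene and dye at once, and levels over it are described and not tested. Of 9 ventral prostate markers, 6 were below the reference by more than 2-fold in all 8 rats, among them the secretory genes Andpro, Msmb and Pbsn, while the epithelial keratins Krt8 and Krt18 were near it. Keratin 18 averaged 0.34 ± 0.22 in control and 0.54 ± 0.27 in treated rats on the log2 scale (SD, n = 4 each). Over all 23188 genes tested, telmisartan against control gave 0 genes, or 0%, at an adjusted p under 0.05 (limma, Benjamini-Hochberg), with 481 lower and 636 higher at an unadjusted p under 0.05.

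In the TRAP prostate, signal was found for most of the family. By gene, taking the brightest probe, 30 of 44 were well above background in Cy5 on all 8 arrays and the other 14 on 1 to 7 arrays. By probe, 35 of 50 were so on all 8 arrays, where 56.3% of all probes on the array were. Ligands and receptors differed in this count, with 24 of 30 ligands and 6 of 14 receptors detected on all 8 arrays. Ccr1, Ccr2, Cx3cr1, Cxcr3 and Cxcr4 were among these receptors. The number of family probes detected in Cy5 was 50, 43, 50 and 43 in Control 102, 103, 104 and 106, and 36, 41, 44 and 42 in Telmisartan 302, 303, 305 and 306. Every probe was detected in Control 102 and Control 104, and Telmisartan 302 had the fewest. Of all gene spots, 76.8%, 71.9%, 76.4% and 64.7% were well above background in Cy5 in the control rats, in that order. In the treated rats the shares were 59.2%, 60.5%, 68.1% and 63.5%. The ends of the family counts thus lay on the arrays with the highest and lowest shares over all spots.

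In the normal F344 reference the family was seen less. In Cy3 22 of 44 genes were well above background on all 8 arrays, 7 on some and 15 on none. By probe, 26 of 50 were detected on all 8, where 45.9% of all probes were, and 17 of 50 on none, where 45.4% were. Of the 15 genes not detected in the reference, 10 were receptors, out of 14. The reference gave 27 to 32 detected family probes per array, with no gap between the groups.

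Because the reference was not well above background for some genes, only a bound can be given for how far the TRAP prostate lay above it. The bound sets the mean of the TRAP channel against the higher of 2 values on each array, the lowest Cy3 signal that counted as detected and the probe's own Cy3 signal. For Cx3cr1, the fractalkine receptor of monocytes and macrophages, it was at least 2.83-fold higher. For Ccr7, which leads T cells and dendritic cells to lymph nodes, it was at least 1.71-fold. Ccr2, the receptor for Ccl2, was at least 1.39-fold higher on average. In Control 103, Telmisartan 302 and Telmisartan 306 its log2 ratios were -0.10, -0.07 and -0.02, so the bounds hold for the mean and not for every rat. Ccr6, which binds Ccl20, was at least 1.22-fold higher and Xcr1, the dendritic cell receptor for Xcl1, at least 1.17-fold. For Ccl24, Ccr9 and Ccr1l1 the bounds were 1.10-fold, 1.04-fold and 1.04-fold. For Cx3cr1 and Ccr2 the probe's own Cy3 signal was the higher value on every array, so these bounds equal the measured mean ratios.

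**Figure D1:**
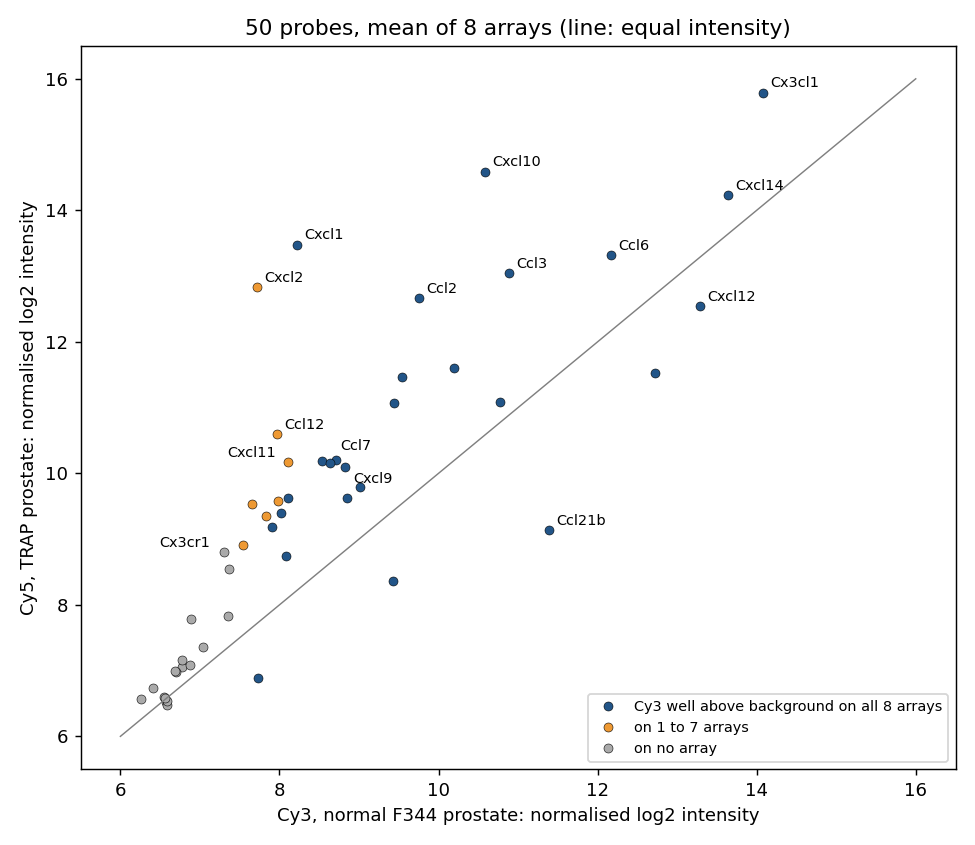
Normalised log2 intensity of each of the 50 probes in Cy5 (TRAP prostate, vertical) and Cy3 (normal F344 prostate, horizontal), mean of 8 arrays, coloured by the number of arrays on which Cy3 was well above background; the line marks equal intensity. Distances from the line can be compared between probes detected in Cy3, and for the others they are partly set by the background. Positions along the line cannot be compared. Cxcl1, Cxcl2 and Cxcl10 lie furthest above it and Ccl21b furthest below, with Cxcl2 well above background in Cy3 on 1 of 8 arrays.

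For 7 genes the probe did not reach the detection filter, which asked for a clear Cy5 signal, flagged as such by the scanner software, on 4 or more arrays. They were Ccl25, Ccl9, Ccr3, Ccr4, Ccr8, Cxcl5 (now Cxcl6) and Cxcl7 (now Ppbp). Each was detected on 2 or 3 arrays, mostly in control rats. All 7 were detected in Control 102 and Control 104, where the shares over all gene spots were the highest, 76.8% and 76.4%. Their detection is therefore not read as a difference between the groups, and these 7 are given by detection alone. The remaining 37 genes, 26 ligands and 11 receptors, passed and were tested. A gene that is dim in treated rats could pass through its control rats, so these 37 are not the whole family.

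Measured against the reference, 3 of the 37 genes were above it by more than 2-fold in all 8 rats, which is true of 3.73% of all genes tested. They were Cxcl1, Cxcl2 and Cxcl10. In at least 7 of 8 rats 10 of 37 were, against 5.03% of all genes, and with Telmisartan 302 left out the count was also 10. In the 4 control rats alone, 13 of 37 were above 2-fold in every rat, against 5.19% of all genes. In the 4 treated rats alone 3 of 37 were, against 4.13%. Telmisartan 302 was the lowest rat for 26 of the 37 genes, or 70.3%, against 18.4% of all genes tested. The treated count can fall through that rat alone, so it is not read as a difference between the groups. By mean ratio over 8 rats Cxcl1 ranked 2nd of 23188 genes, Cxcl2 3rd, Cxcl10 22nd, Ccl2 146th and Ccl12 206th. The ranks of Cxcl2 and Ccl12 rest on a weak reference signal, well above background on 1 and 6 of 8 arrays. Below the reference by more than 2-fold in all 8 rats was 1 of 37 genes, Ccl21b, against 3.29% of all genes.

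Of 4 neutrophil attractants, Cxcl1 and Cxcl2 were the highest of the family over the reference, at 4.52 or more in all control rats on the log2 scale. The other two, Cxcl5 and Cxcl7, did not reach the detection filter. Cxcl1 had log2 ratios of 5.85, 5.14, 5.72 and 5.81 in Control 102, 103, 104 and 106, and 2.70, 6.43, 5.26 and 5.14 in Telmisartan 302, 303, 305 and 306. The lowest and the highest rat were both treated, and the groups overlapped. The difference between treated and control rats was -0.75 (SE 0.63, 95% interval -2.16 to 0.66, limma adjusted p = 0.982), and it was -0.02 without Telmisartan 302 and -1.26 without Telmisartan 303. On slide 1 alone it was -0.93 and on slide 2 alone -0.57.

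Cxcl2, the other Cxcr2 ligand tested, showed the same order at its ends. Its log2 ratios were 6.24, 4.52, 5.40 and 5.69 in control rats and 1.28, 6.65, 5.95 and 5.16 in treated rats. Telmisartan 302 stood far below and Telmisartan 303 above all others. The difference was -0.70 (SE 0.98, 95% interval -2.89 to 1.50, limma adjusted p = 0.988), and with a rat left out -0.44 without Control 102, 0.46 without Telmisartan 302, -1.33 without Telmisartan 303 and -1.09 without Telmisartan 305. On slides 1 and 2 alone it was -1.41 and 0.02. Cxcl2 was well above background in the reference on 1 of 8 arrays, so its ratios rest on a weak Cy3 signal.

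The receptors of these ligands, Cxcr1 and Cxcr2, carry older names in the files and fall outside the name rule. Cxcr1 was detected on 0 of 8 arrays in Cy5 and Cxcr2 on 4. Of 12 neutrophil markers on the array 8 were tested. The median difference of the 8 was -0.08, with 6 below 0, and 0 passed. Mpo, which encodes myeloperoxidase, and Fpr1 were detected on 0 of 8 arrays in Cy5, whereas Csf3r, Mmp8, Mmp9, Camp and S100a9 were each detected on 7. S100a9, the partner of the alarmin S100a8, averaged 2.08 ± 0.41 in control and 1.68 ± 1.06 in treated rats (SD, n = 4 each). Np4, detected in both channels on all 8 arrays, averaged -0.22 ± 0.05 in control and -0.17 ± 0.07 in treated rats. The mean log2 ratio of the 8 was 0.52 to 1.11 in control rats and 0.15 to 1.29 in treated rats, lowest in Telmisartan 302 and highest in Telmisartan 303. S100a8 itself had 2.13, 1.12, 1.61 and 1.84 in control rats and 0.01, 2.66, 1.42 and 0.87 in treated rats, with its ends in the same 2 rats as Cxcl1 and Cxcl2. What part these cells have in the Cxcl1 and Cxcl2 values was not tested.

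Among monocyte attractants, all 7 ligands and all 4 receptors tested had a fitted difference below 0, with a median of -0.54 that was -0.34 without Telmisartan 302, and 0 of 11 passed the test. Ccl2, the main ligand of Ccr2, had log2 ratios of 4.61, 2.54, 3.70 and 3.67 in control rats and -0.42, 3.56, 3.43 and 2.12 in treated rats. Telmisartan 302 was the one rat below the reference. The spread between the 10 spots of an array was far smaller than that between rats. The difference of -1.46 (SE 0.80, 95% interval -3.24 to 0.32, limma adjusted p = 0.982) was -0.60 without Telmisartan 302. It was -2.01 on slide 1 and -0.91 on slide 2.

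Ccl7 is a second Ccr2 ligand, encoded next to Ccl2. It had 2.86, 1.26, 2.52 and 2.05 in control rats and -0.74, 0.75, 2.34 and 0.83 in treated rats. In treated rats 3 of 4 lay below the lowest control rat, and Telmisartan 305 lay among the controls. The difference was -1.38 (SE 0.57, 95% interval -2.64 to -0.11, unadjusted p = 0.0356, adjusted p = 0.982, limma), and -0.87 without Telmisartan 302. The slides gave -2.06 and -0.70. The other Ccl7 probe gave a difference of -1.48 and departed from the tested one by at most 0.20 in any rat.

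Ccl12, a rodent relative of Ccl2, followed Ccl7 closely. Its log2 ratios were 3.97, 2.32, 3.71 and 3.22 in control rats and 0.23, 2.18, 3.50 and 1.84 in treated rats. Again Telmisartan 305 was the treated rat within the control range. The difference was -1.37 (SE 0.60, unadjusted p = 0.0472, adjusted p = 0.982, limma), and -0.80 without Telmisartan 302. It was -1.94 on slide 1 and -0.80 on slide 2. Over the 8 rats, Ccl7 and Ccl12 had a Pearson r of 0.994 (exact permutation p = 4.96e-05, adjusted over 27 pairs 0.000670, two-sided) and a Spearman rho of 0.976 (exact permutation p = 0.000397, adjusted 0.00536). Leaving out Control 102 and Telmisartan 302, which lay farthest from the median, gave r = 0.982. Removing slide means gave 0.993 and removing group means 0.991. The 27 pairs were chosen after the values had been seen, which the adjustment does not cover.

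The inflammatory macrophage proteins were above the reference on average. Ccl3, a ligand of Ccr1, had 2.72, 2.05, 2.38 and 2.25 in control rats and 0.91, 2.43, 2.40 and 2.15 in treated rats. Apart from Telmisartan 302 the groups covered one range, and the difference of -0.38 (SE 0.31) was -0.03 without that rat. Ccl4, a related attractant, averaged 1.84 ± 0.67 in control and 1.21 ± 0.59 in treated rats (SD, n = 4 each). Ccl6 averaged 1.42 ± 0.85 and 0.88 ± 0.83. Cx3cl1, the membrane-bound ligand fractalkine, was bright in both channels and held within 1.87 to 1.96 in control rats, against 0.84 to 2.17 in treated rats. Its other probe, also detected in both channels on all 8 arrays, gave 0.59 to 1.02 and -0.18 to 1.32.

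The receptor Cx3cr1 had the smallest unadjusted p of the family. Its log2 ratios were 1.87, 1.74, 1.51 and 1.91 in control rats and 1.00, 1.36, 1.65 and 0.95 in treated rats. The groups overlapped through Telmisartan 305, which lay above Control 104. The difference was -0.52 (SE 0.17, 95% interval -0.89 to -0.14, unadjusted p = 0.0115, adjusted p = 0.955, limma), and it ranged from -0.65 to -0.42 with each rat left out in turn. It was -0.63 on slide 1 and -0.41 on slide 2, -0.22 with no background correction and -1.31 with the scanner's own ratios. Since Cx3cr1 was not well above background in the reference on any array, its ratios are partly set by the background.

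Of the other monocyte receptors, Ccr2 averaged 0.65 ± 0.53 in control and 0.29 ± 0.44 in treated rats, and Ccr1 averaged 0.80 ± 0.47 and 0.53 ± 0.71 (SD, n = 4 each). Of 14 monocyte and macrophage markers, all tested, 12 had a difference below 0 with a median of -0.40 and 0 passed. Their mean log2 ratio was 0.96 to 1.80 in control rats and 0.46 to 1.70 in treated rats, lowest in Telmisartan 302, and its part in the chemokine values was not tested. Cd68, a lysosomal marker of macrophages, averaged 2.25 ± 0.33 in control and 1.83 ± 0.62 in treated rats. Lyz2, the brightest of the 14 markers, averaged 0.23 ± 0.66 in control and 0.20 ± 1.41 in treated rats.

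Among the T cell attractants and their receptors, 10 of 12 genes tested had a difference below 0, with a median of -0.53 that was -0.26 without Telmisartan 302, and 0 passed. Cxcl9 had log2 ratios of 2.37, -0.05, 1.97 and 1.88 in control rats and 0.28, 0.08, 2.30 and 1.44 in treated rats. Control 103, Telmisartan 302 and Telmisartan 303 were near the reference and the other 5 rats lay between 1.44 and 2.37. The difference was -0.52 (SE 0.59, 95% interval -1.84 to 0.80, limma adjusted p = 0.982), with -0.98 on slide 1 and -0.06 on slide 2. With a rat left out it ranged from -1.05 without Control 103 to -0.20 without Telmisartan 303.

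Cxcl10 was the highest of these genes over the reference. It had 5.41, 3.52, 5.14 and 4.26 in control rats and 2.30, 2.29, 5.25 and 3.85 in treated rats. Telmisartan 302 and 303 were the lowest and Telmisartan 305 was among the highest. The difference was -1.16 (SE 0.66, 95% interval -2.62 to 0.30, limma adjusted p = 0.982), and -1.77 without Telmisartan 305. It was -2.17 on slide 1 and -0.15 on slide 2.

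Cxcl11, the third Cxcr3 ligand, had 3.56, 0.95, 3.29 and 2.81 in control rats and 0.18, 1.14, 3.00 and 1.58 in treated rats. Its lowest rats were again Telmisartan 302, Control 103 and Telmisartan 303. The difference was -1.18 (SE 0.65, 95% interval -2.64 to 0.29, limma adjusted p = 0.982), and -0.75 without Telmisartan 302. The slides gave -1.59 and -0.76.

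Their receptor Cxcr3, carried by activated T cells and NK cells, had 1.56, -0.22, 1.55 and 1.32 in control rats and -0.33, 0.07, 1.52 and 0.81 in treated rats. It was low in the same 3 rats as Cxcl9. Because these 3 rats stood apart from the other 5 for both genes, no pooled correlation is given for Cxcr3 or Cxcl9. Xcl1, a chemokine made by activated T and NK cells, had 2.84, 0.26, 3.06 and 1.73 in control rats and 0.23, 0.72, 2.73 and 1.23 in treated rats. Ccl5, which attracts T cells and monocytes, had 2.63, 1.17, 2.88 and 3.10 in control rats and 0.40, 0.58, 3.13 and 1.55 in treated rats. For both, Telmisartan 302, Telmisartan 303 and Control 103 were the lowest rats.

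**Figure D2:**
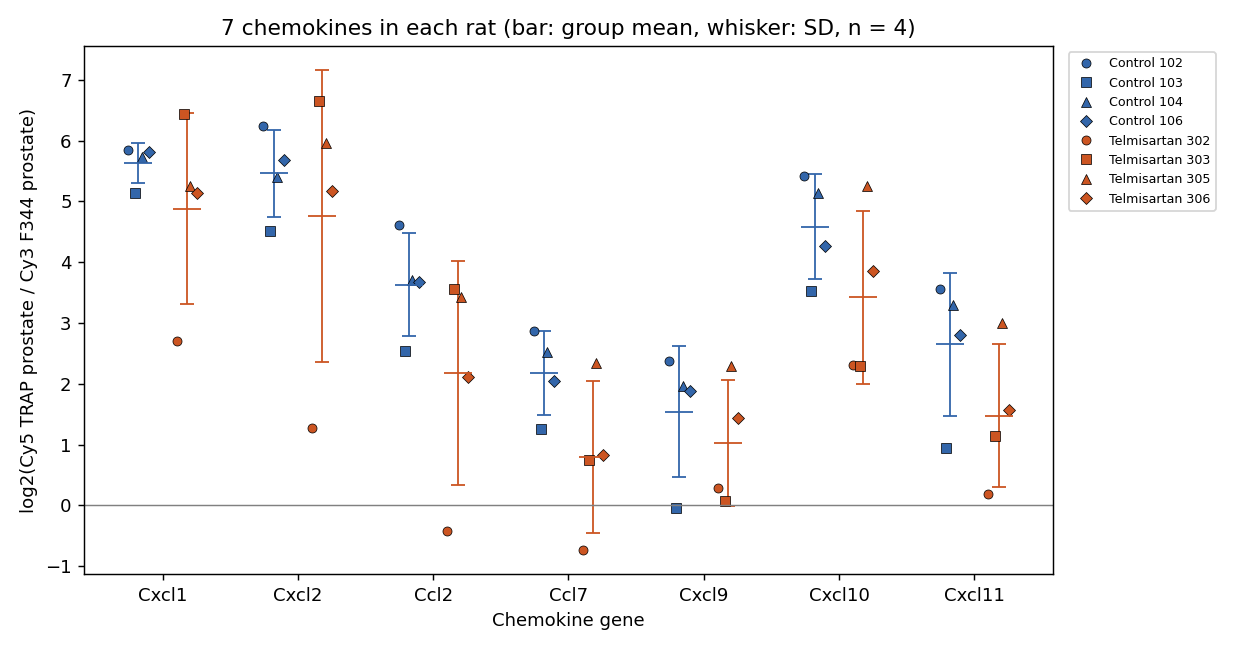
Log2 ratio of TRAP prostate over normal F344 prostate for 7 chemokines (horizontal) in each rat (points; shapes mark the rats), with group mean and SD, n = 4 control and 4 treated rats. Telmisartan 302 is lowest for Cxcl1 and Cxcl2 at 2.70 and 1.28 while Telmisartan 303 is highest at 6.43 and 6.65, whereas for Cxcl10 both are low at 2.30 and 2.29.

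T cell markers were low in the same rats. Their mean log2 ratio over 12 tested markers was 2.43, 0.69, 2.34 and 1.99 in control rats and 0.36, 1.14, 2.10 and 1.40 in treated rats, and that of the 12 T cell attractants and receptors was 1.96, 0.72, 1.97 and 1.68 and then 0.19, 0.92, 2.00 and 1.14. Telmisartan 302, Control 103 and Telmisartan 303 were the 3 lowest rats in both. All 12 markers had a difference below 0, with a median of -0.69, and 0 passed. The T cell receptor subunit Cd3d averaged 2.31 ± 1.15 in control and 1.44 ± 0.92 in treated rats (SD, n = 4 each). All 9 NK cell markers also had a difference below 0, with a median of -0.62, and the part of either cell type in the chemokine values was not tested. All 5 B cell markers tested were below 0 (median -0.06), and 3 of 7 mast cell and eosinophil markers were (median 0.03). All 5 pan-leukocyte markers were below 0 (median -0.44), and 0 of these lists' genes passed. Among them Cd52 averaged -3.18 ± 0.41 in control and -3.79 ± 0.12 in treated rats, and Coro1a 3.38 ± 1.09 and 2.76 ± 1.06. Over the reference Cd52 went against its list. Coro1a, Laptm5, Ptprc and Lcp1 averaged 3.07, 1.77, 1.58 and 0.15 over 8 rats.

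Other ligands of T cells did not share this order. Ccl17, a Ccr4 ligand made by dendritic cells, had 2.28, 1.90, 2.27 and 2.38 in control rats and -0.00, 2.70, 2.21 and 1.39 in treated rats. Ccl22, with the same receptor and encoded close by on chromosome 19, had 1.64, 1.05, 1.53 and 1.85 in control rats and -0.14, 2.21, 1.75 and 1.07 in treated rats. For both, Telmisartan 302 was lowest and Telmisartan 303 highest. The other Ccl22 probe did not share this order, with Telmisartan 306 lowest at -0.08 and Control 104 highest at 0.59. Its Cy3 signal was well above background on no array. For the tested Ccl22 probe and for Ccl17 it was so on 1 and 2 of 8 arrays, so all these ratios rest on a weak Cy3 signal. Ccl20, which attracts cells with Ccr6, was 0.97 to 1.52 in control rats and 0.27 to 2.47 in treated rats, and its difference of 0.39 (SE 0.39) was 0.83 without Telmisartan 302, 0.23 without Telmisartan 303 and 0.10 without Telmisartan 305.

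Ccr6 itself had 0.73, 0.22, 0.51 and 0.41 in control rats and -0.04, 0.33, 0.17 and 0.21 in treated rats. The groups overlapped between 0.22 and 0.33. The difference was -0.30 (SE 0.13, unadjusted p = 0.0413, adjusted p = 0.982, limma), at a signal not well above background in the reference on any array. It was -0.18 with no background correction and -0.46 with the scanner's own ratios. Ccl27, a skin T cell attractant, was below the reference in all rats, between -1.39 and -0.95. Its difference was 0.06 (SE 0.11, 95% interval -0.20 to 0.31).

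The remaining 12 genes attract several or other cells, and their median difference was -0.10, with 8 below 0. Without Control 102 the median was 0.005. Ccl21b (now Ccl21), which leads Ccr7-bearing cells into lymph vessels, was the lowest of the family over the reference. Its log2 ratios were -2.53, -2.80, -3.13 and -1.46 in control rats and -1.41, -2.69, -2.74 and -1.31 in treated rats. The 3 highest were Telmisartan 306, Telmisartan 302 and Control 106. The difference was 0.44 (SE 0.42, 95% interval -0.50 to 1.39, limma adjusted p = 0.982). It ranged from 0.20 without Telmisartan 306 to 0.78 without Control 106, with 0.23 without Control 104, 0.23 without Telmisartan 302 and 0.67 without Telmisartan 305.

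Cxcl12, the stromal ligand of Cxcr4, was below the reference on average, at -0.68 ± 0.56 in control and -0.82 ± 0.52 in treated rats (SD, n = 4 each). Its other probe gave -1.29 ± 0.22 and -1.12 ± 0.42, and the pair departed by up to 1.29 in 1 rat, Control 102. The sign of its difference differed between the probes, at -0.14 and 0.17. Cxcr4 averaged 1.87 ± 0.58 in control and 1.19 ± 0.81 in treated rats, with Telmisartan 302 at 0.05. The eosinophil attractant Ccl11 was below the reference in all 8 rats, from -1.29 to -0.35, and Ccl24 was near it, from -0.27 to 0.68.

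Cxcl14, an epithelial chemokine, was bright in both channels and stood 0.12 to 1.03 above the reference. Cxcl4 (now Pf4), the platelet factor, had 0.76, 0.71, 0.37 and 0.39 in control rats and -0.63, 0.52, 0.47 and -0.13 in treated rats, a difference of -0.50 (SE 0.24, unadjusted p = 0.0665, adjusted p = 0.982, limma). Ccr7 averaged 1.12 ± 0.40 in control and 0.67 ± 0.38 in treated rats, a difference of -0.45 (SE 0.23). Ccl19, the other Ccr7 ligand, averaged 1.58 ± 0.84 and 1.23 ± 1.20. Ccl28, a mucosal chemokine, averaged 1.30 ± 0.50 and 1.24 ± 0.52, and the receptors Xcr1 and Ccr1l1 stayed within 0.18 to 1.07 and 0.01 to 0.68 over all rats.

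Across the family the rats differed more than the groups did. Telmisartan 302 was the lowest rat for 26 of the 37 tested genes, or 70.3%, against 18.4% of all genes tested. Control 102 was the highest rat for 16, or 43.2%, against 11.8%. Telmisartan 303 was highest for 8, or 21.6%, against 12.7%, and lowest for 3, or 8.11%, against 13.8%. The mean log2 ratio of Cxcl1 and Cxcl2 was 4.83 to 6.04 in control rats, 1.99 in Telmisartan 302 and 6.54 in Telmisartan 303. For the monocyte group, Telmisartan 302 had a mean of 0.15 and the other rats 1.18 to 2.48.

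**Figure D3:**
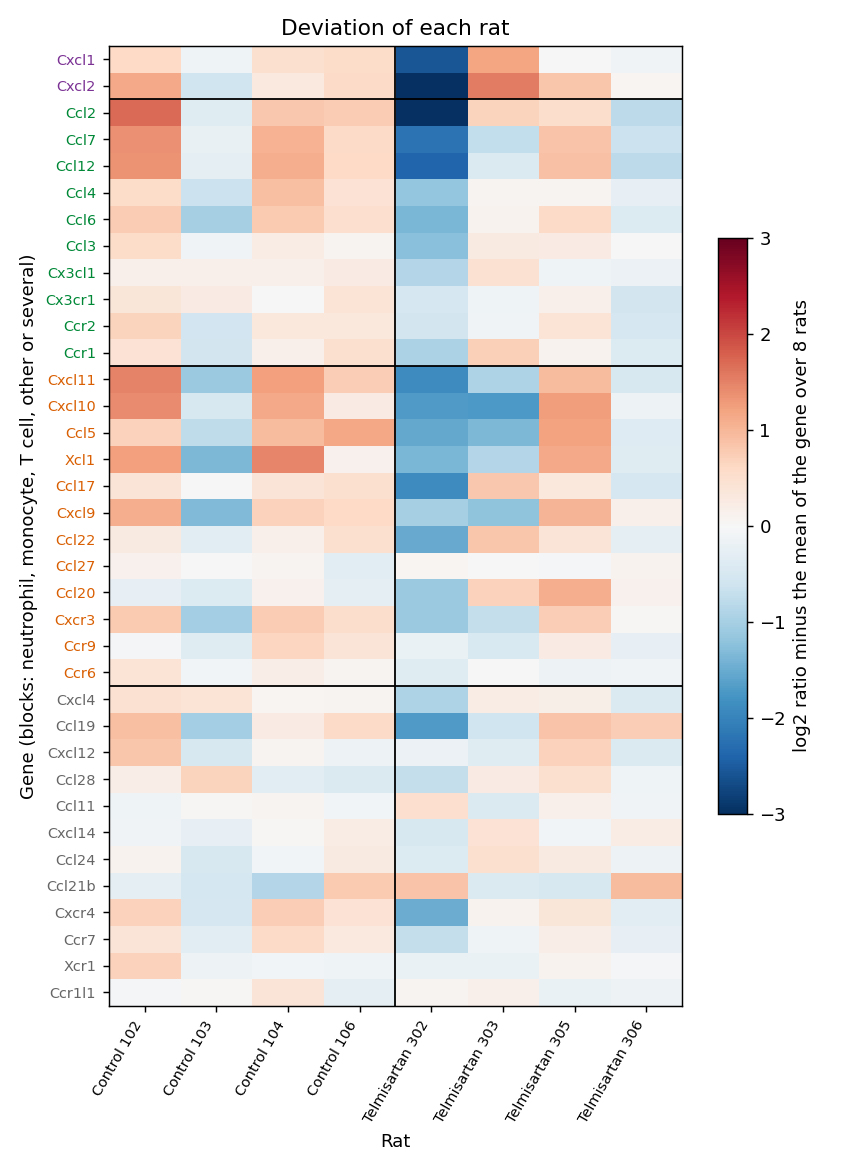
Log2 ratio of 36 of the 37 tested genes (rows, in blocks by the cell attracted) in each rat (columns), minus the mean of that gene over 8 rats; blue is lower, red is higher, and colours end at 3 on either side. Telmisartan 302 is the lowest rat for 25 of the 36, and Cxcl9, Cxcl10 and Cxcl11 are also low in Control 103 and Telmisartan 303, while Cxcl1 and Cxcl2 are highest in Telmisartan 303.

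How far members varied together was described over 27 pairs of ligands and receptors, which were chosen after the values had been seen. The adjusted p-values do not cover that choice. Cxcl10 and Cxcl11 had a Pearson r of 0.931 over 8 rats (exact permutation p = 0.00107, adjusted 0.00720, two-sided) and a Spearman rho of 0.905 (exact permutation p = 0.00456, adjusted 0.0154). The Pearson r was 0.936 without Telmisartan 302 and 303, the rats farthest from the median. It was 0.905 with slide means removed and 0.908 with group means removed. Cxcl1 and Cxcl2 had r = 0.968 (exact permutation p = 0.00179, adjusted 0.00864) and rho = 0.929 (exact permutation p = 0.00223, adjusted 0.0121). Without Telmisartan 302 and 303 it was 0.627, so this relation rests largely on those 2 rats.

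Pairs across the groups of ligands varied, and no difference between pairs was tested. Cxcl1 and Cxcl10 had r = 0.399 (exact permutation p = 0.364, adjusted 0.378) and rho = 0.238 (exact permutation p = 0.582, adjusted 0.605), with r = 0.579 without Telmisartan 302 and 303 and 0.343 with slide means removed. Ccl2 and Cxcl1 had r = 0.925 (exact permutation p = 0.00449, adjusted 0.00932) and rho = 0.810 (exact permutation p = 0.0218, adjusted 0.0490), but r was 0.521 without Telmisartan 302 and 306. Ccl20 and its receptor Ccr6 had r = 0.147 (exact permutation p = 0.744, adjusted 0.744) and rho = 0.119 (exact permutation p = 0.793, adjusted 0.793), and r was -0.177 without Telmisartan 302 and 305. All values share their array and its normalization, and 4 rats per slide were too few for a value within a slide.

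**Figure D4:**
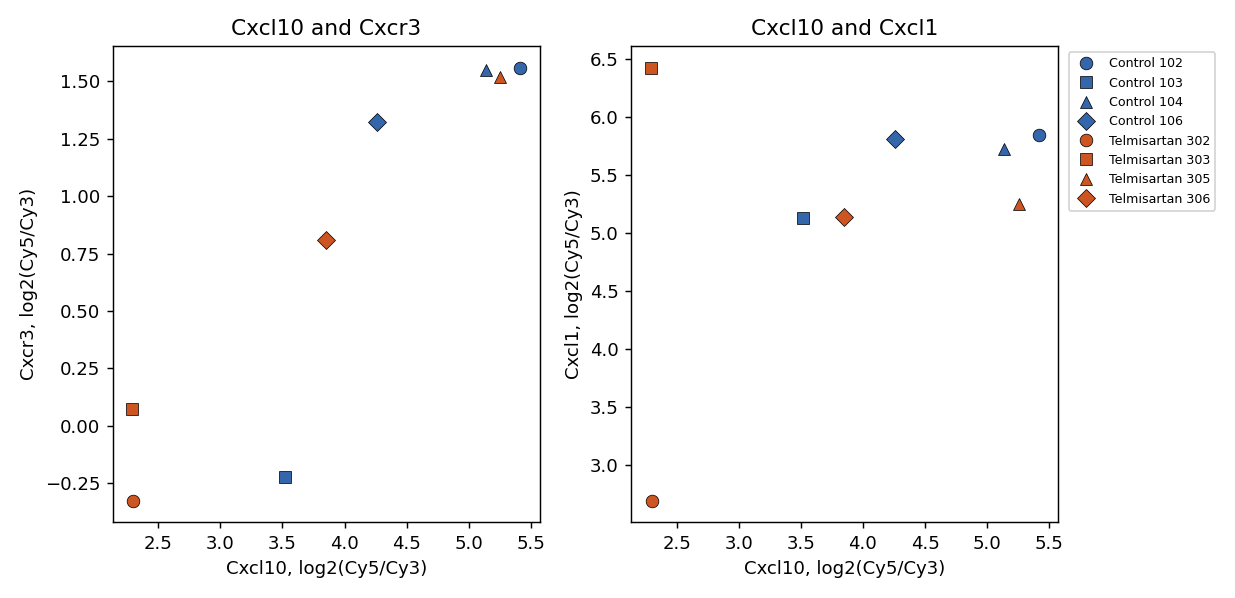
Log2 ratio of Cxcl10 (horizontal, both panels) against that of its receptor Cxcr3 (left) and of Cxcl1 (right), 1 point per rat, blue for control and orange for treated. In the left panel the 3 rats with Cxcr3 at or below 0.07 also have Cxcl10 at or below 3.52; in the right panel Telmisartan 303 joins the lowest Cxcl10, 2.29, with the highest Cxcl1, 6.43.

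The study's comparison of treated with untreated rats gave a fitted difference below 0 for 31 of the 37 genes, against 50.6% of all genes tested. The median difference was -0.45, against -0.002 for all genes, and -0.18 without Telmisartan 302. All 11 receptors had a difference below 0 (median -0.36), and so had 20 of 26 ligands (median -0.51). The 6 genes above 0 were Ccl21b, Ccl20, Ccl24, Ccl27, Ccl11 and Cxcl14. With Telmisartan 302 left out, 27 of 37 were below 0. Among the receptors, Ccr9 and Ccr1l1 were detected in Cy5 on 4 control and 2 treated arrays, and Ccr6 and Ccr7 on 4 and 3. The detection filter could thus favour genes higher in control rats, and the signs are no independent support. With no filter 36 of 44 genes were below 0, against 51.3% of all genes. With Cy5 detection asked for on all 8 arrays 26 of 30 were, against 49.9%. The treated arrays had fewer spots above background, as given above, and the part of this in the direction was not tested.

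None of the 37 genes passed the test, and the smallest adjusted p was 0.955 (limma, Benjamini-Hochberg over 23188 genes). At an unadjusted p under 0.05, 4 genes were lower (Cx3cr1, Ccl7, Ccr6 and Ccl12) and 0 higher, where 2.07% of all genes were lower and 2.74% higher. That count of 4 was 16 without Control 103, 10 without Telmisartan 305, 6 without Telmisartan 303, and 1 without each of the other 5 rats in turn. It was 10 with array weights and 1 with no background correction, with median centring or in Cy5 alone. The count over all 23188 genes, lower or higher, moved as well. It was 1117 in the main fit, 2021 without Control 103, 1758 without Telmisartan 305 and 969 without Telmisartan 303. Without each of the other 5 rats it was 665 to 1457. With array weights it was 2597, with no background correction 992, with median centring 915 and in Cy5 alone 1081. In 0 of 37 genes did the groups separate, where they did so downwards in 1.23% of all genes and upwards in 1.5%. The number of rats limits the precision. The 95% intervals reached from -3.24 for Ccl2 to 1.50 for Cxcl2, and both of these intervals take in differences beyond 2-fold. The p-values measure the spread between separate rats, each with 1 array.

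**Figure D5:**
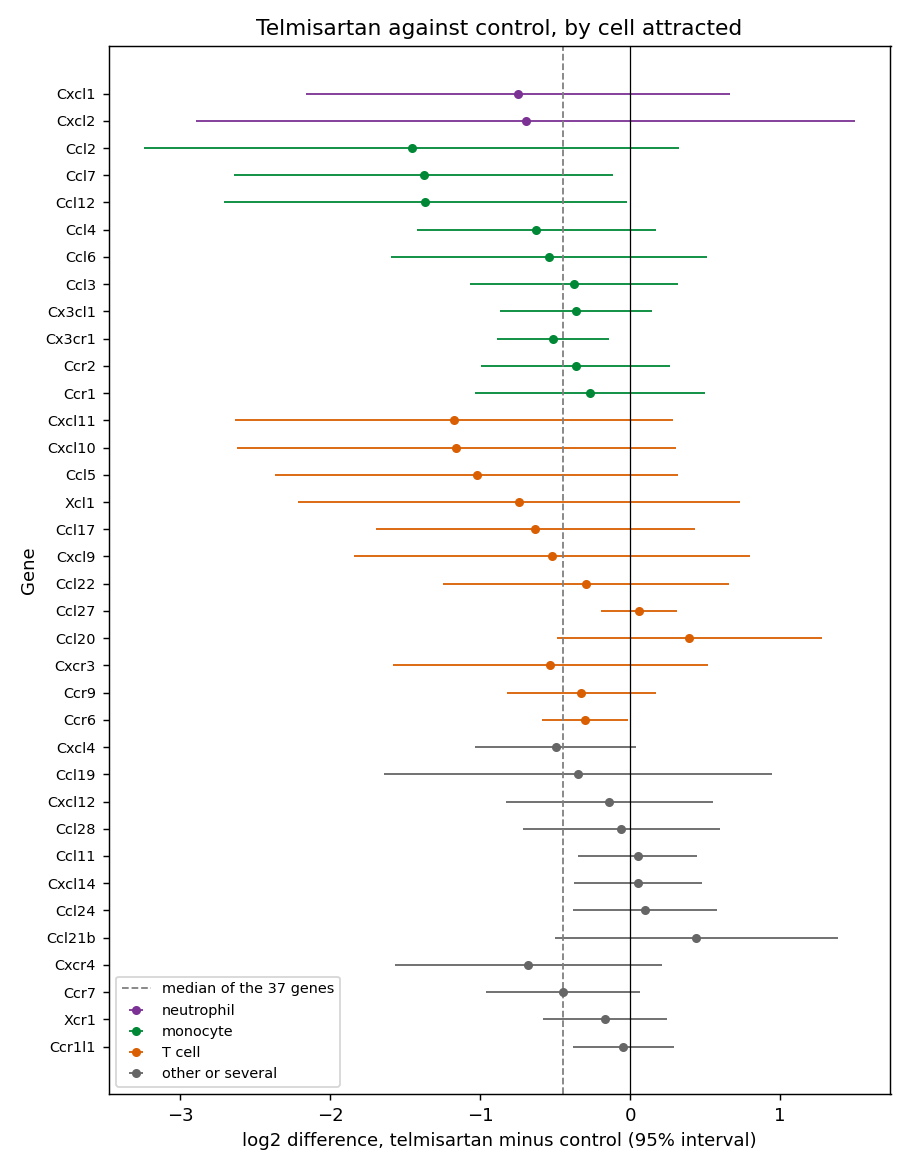
Fitted log2 difference, telmisartan minus control, with its 95% interval for 36 of the 37 tested genes (rows, grouped by the cell attracted, ligands before receptors); the dashed line is the median of the 37, -0.45. Points lie below 0 for 30 of the 36, and the intervals of Cx3cr1, Ccl7, Ccl12 and Ccr6 lie below 0 before adjustment.

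Genes on either side of the chemokine signal were described from lists on the same arrays. The genes named from them, apart from interleukin 1 beta, were picked for the smallest unadjusted p of their list, telmisartan against control. They are thus extremes of their lists, and their p-values are no independent support. Of inducers and feedback regulators, 16 of 18 tested had a difference below 0 (median -0.32), and 0 passed. Interleukin 1 beta (Il1b), which induces Cxcl1 and Ccl2 in many tissues, had 3.03, 0.98, 2.71 and 2.72 in control rats and -0.53, 2.75, 2.44 and 1.72 in treated rats. Telmisartan 302 was again lowest, and Telmisartan 303 lay with the high rats. Interferon gamma (Ifng), which induces the Cxcr3 ligands, had 1.31, 0.05, 1.46 and 0.49 in control rats and -0.10, 0.12, 0.71 and 0.25 in treated rats. Il1b is named after its values were seen, and Ifng was detected in Cy5 on 5 of 8 arrays. Tlr2, a sensor of bacterial lipoproteins, averaged 3.06 ± 0.12 in control and 2.74 ± 0.21 in treated rats (difference -0.32, SE 0.12, unadjusted p = 0.0271, adjusted p = 0.982, limma).

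Downstream of the receptors, 13 of 16 signalling genes had a difference below 0 (median -0.15), and 0 passed. Rgs18, a regulator of G protein signalling in blood cells, averaged 1.48 ± 0.45 in control and 0.92 ± 0.52 in treated rats (SD, n = 4 each). Of genes for leukocyte adhesion, 13 of 16 were below 0 (median -0.21), and 0 passed. Itgam, the alpha chain of a macrophage and neutrophil integrin, had 2.49, 2.73, 2.74 and 2.65 in control rats and 1.72, 2.34, 2.46 and 1.89 in treated rats. Its groups did not overlap, and its difference was -0.55 (SE 0.16, unadjusted p = 0.00765, adjusted p = 0.934, limma). Of 11 related ligands and receptors outside the name rule 9 were below 0 (median -0.21). C5ar1, the receptor of complement C5a, averaged 1.98 ± 0.35 in control and 1.26 ± 0.78 in treated rats. The scavenger receptor Ackr3 averaged -1.40 ± 0.33 and -1.79 ± 0.29. The lists overlap, with S100a8, S100a9 and Cxcr2 also among the neutrophil markers and Itgam among the monocyte and macrophage markers. Their counts are therefore not of separate genes.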

How the data were processed

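Ventral prostate RNA of 4 control and 4 telmisartan-treated TRAP rats was measured on 2-colour arrays, 1 per rat, on 2 slides. RNA extraction used ISOGEN and linear amplification followed, per the labels' protocols. Per the file headers, spots were read with Agilent Feature Extraction 9.1. The intensities deposited by the authors are mean spot and median local background signals, uncorrected. The deposited log10 ratios were background-subtracted and dye-normalized by that software, per the file headers, and the deposited series matrix matched them in file order. It was used as an alternative. Detection was read from the deposited flags for signal well above background, with a probe called where at least 50% of its spots were.

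Intensities were corrected with normexp (offset 50) and normalized by loess within arrays, control spots at weight 0, in limma 3.58.1 and R 4.3.3. Outlier spots were dropped and spots of a probe averaged. A probe was kept if Cy5 was flagged well above background on 4 or more arrays, and the brightest probe stood for its gene, which left 23188 genes. The test of the groups was lmFit with eBayes on log2(Cy5/Cy3), two-sided, Benjamini-Hochberg adjusted, threshold 0.05, with the group as the only term. The fit was tested on simulated data. Pairs of genes were compared by exact permutation of 8 rats (40320 orders). Names came from a RefSeq gene table (GRCr8). Of the 50 probes 44 matched by accession and 6 by symbol. Ela2 and Fcgr3 were left out of the neutrophil markers because those names lead to other genes in that table.

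The genes, groups by cell attracted and lists were chosen with earlier results of these data known. Values of every rat are given for the 7 marker ligands. The 6 lower and 6 higher genes by unadjusted p, and the 6 highest and 4 lowest over the reference, are named by rule. The rule also picked up to 3 genes of each list, by smallest unadjusted p, or by highest mean intensity for the cell type markers. Not all of these are named here. Further genes and pairs were chosen after their values were seen. The submitters give 36 rats in 3 groups, and those at 2 mg/kg per day were not analysed here. The treated rats' label holds both doses, and 10 mg/kg per day is the one the series text gives for the arrays. The sources used here do not say whether the reference was 1 pool. Longer promoter words of 10 letters were searched before the 9-letter words reported. Alternatives covered background correction, normalization, channel, filter, probes of a gene, slide, variance model, array weights and each rat left out. The values of 1 tested gene are not reported here, and counts over the family include it.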

Additional observations from a re-analysis of the deposited data

How the results depend on the processing

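In all 22 alternative fits 0 of the tested chemokine and receptor genes passed, with a smallest adjusted p of 0.362. The number of all genes passing was 0 to 1 with a rat left out, the 1 appearing without Control 102 and without Telmisartan 303. The count of genes above the reference by more than 2-fold in all 8 rats, 3, became 2 with no background correction, 6 with the scanner's log10 ratio, 6 with the series matrix, 9 with median centring, and 3 to 10 with a rat left out, a check added after the data were seen. The cause was not tested. The median difference ranged from -0.64 to -0.18, and the number below 0 from 27 to 33, with a rat left out. Of 20 named genes 14 kept their sign throughout, and the other 6 turned in some fits.

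With a rat left out in turn the 6 ranged as follows. Ccl11 ranged from -0.106 without Telmisartan 302 to 0.207, Ccl24 from -0.0456 without Control 103 to 0.249, and Ccl27 from -0.0397 without Control 106 to 0.109. Cxcl12 ranged from -0.395 to 0.115 without Control 102, Cxcl14 from -0.0847 without Telmisartan 303 to 0.218, and Cxcl2 from -1.33 to 0.463 without Telmisartan 302. In other settings Ccl11 turned to -0.034 with array weights, Ccl24 to -0.233 with median centring, -0.363 in Cy5 alone and -0.022 on slide 2, and Ccl27 to -0.036 on slide 1. Cxcl12 turned to 0.015 with the mean of its probes and 0.163 on slide 2, and on slide 2 Cxcl14 turned to -0.061 and Cxcl2 to 0.016. The cause was not tested.

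Ccl11, Ccl24, Ccr6 and Ccr7 have no value where detection on all 8 arrays was asked for. With the looser flag for signal above local background, 44 of 50 probes were seen in Cy5 and 34 in Cy3 on all 8 arrays, against 35 and 26. No paired analysis was possible because the groups share no replicate numbers.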
